A study of Mus musculus with 2 samples.

Results

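The interferon-inducible gene families examined here were the Gbp, Irgm, Ifit, Ifitm, Oas, Oasl, Isg, Ifi and Mx genes. They were chosen by name: a protein-coding gene on an autosome of the GENCODE annotation of GRCm38 (release M21) was a member when its symbol began with one of these stems followed by a digit. This gave 58 members among 20807 autosomal protein-coding genes, and the rule itself used no measured value, although earlier results of these data were known when it was set. The measurement was H3K4me3 ChIP-seq by CATCH-seq, a protocol for small cell numbers, in group 2 innate lymphoid cells (ILC2s) from the lungs of 8-week-old C57BL/6J mice. One group held offspring of mothers that were sensitized with ovalbumin (OVA) and received it intranasally during pregnancy, a model of maternal asthma, and the control group held offspring of mothers given phosphate-buffered saline (PBS) instead. Mothers of both groups received the adjuvant alum at sensitization and were mated with untreated males. The chromatin was native and cut with micrococcal nuclease, and each group had 1 library and therefore no replicate. The groups therefore could not be compared by a test, and maternal treatment, litter, cell pool and library cannot be told apart. For each library the authors deposited a list of called peaks, referred to below as the PBS list, with 42126 peaks, and the OVA list, with 51610 peaks. The study gives a total read number for the ChIP-seq, but the depth of each library was not given in the sources used here. The study's reporting summary also says that its authors did not call peaks on the ChIP-seq data, although peak lists were deposited, and how the deposited lists were made is not given there.

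Interferons are cytokines that induce a large set of genes with antiviral and antimicrobial roles. Type I and type III interferons signal through their receptors and Janus kinases to a transcription factor complex with IRF9 as a DNA-binding subunit, which binds the interferon-stimulated response element (ISRE), a repeat of GAAA cores. Interferon gamma acts mainly through another element, the gamma-activated site (GAS). H3K4me3 is a histone mark found at the starts of active genes and at CpG islands, including those of many genes that are poised rather than transcribed. Most of the families are arrays of paralogs that arose by tandem duplication, so that their members resemble each other in sequence.

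The sequences before the starts of 7 members are shown to compare members with a peak at their start in both lists with members that had none, all of which carried an ISRE-like match. The motif searched was GAAA followed by any 2 bases and a second GAAA, on either strand. Matches are in capitals (on the opposite strand they read TTTC, any 2 bases and TTTC). Each stretch runs 5′ to 3′ on the gene's strand up to the RefSeq start (GRCm38.p6), with annotated exons left out. The first 3 genes had a start peak in both lists and the last 4 had one in neither.
Gbp7 (chr3:142530176-142530335, plus strand): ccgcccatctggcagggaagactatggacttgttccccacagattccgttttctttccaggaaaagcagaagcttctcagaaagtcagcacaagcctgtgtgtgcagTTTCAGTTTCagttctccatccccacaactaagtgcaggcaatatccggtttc
Irgm2 (chr11:58214817-58214976, plus strand): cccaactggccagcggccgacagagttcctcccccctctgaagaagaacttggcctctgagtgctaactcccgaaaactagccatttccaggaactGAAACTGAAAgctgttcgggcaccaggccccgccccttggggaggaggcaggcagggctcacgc
Oas1c (chr5:120812515-120812634, minus strand): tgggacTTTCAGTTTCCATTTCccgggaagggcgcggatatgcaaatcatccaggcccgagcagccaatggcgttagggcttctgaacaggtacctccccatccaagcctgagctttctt
Isg15 (chr4:156200819-156200978, minus strand): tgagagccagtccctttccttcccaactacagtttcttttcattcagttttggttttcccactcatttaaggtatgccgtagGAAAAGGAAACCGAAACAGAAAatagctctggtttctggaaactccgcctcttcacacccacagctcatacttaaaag
Ifit1 (chr19:34640744-34640870, plus strand): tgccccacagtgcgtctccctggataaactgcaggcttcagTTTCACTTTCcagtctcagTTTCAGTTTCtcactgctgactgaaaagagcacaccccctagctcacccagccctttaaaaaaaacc
Ifit3 (chr19:34583369-34583528, plus strand): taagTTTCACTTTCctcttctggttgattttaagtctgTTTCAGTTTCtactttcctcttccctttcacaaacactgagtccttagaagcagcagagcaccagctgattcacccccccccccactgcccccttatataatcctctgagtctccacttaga
Oas3 (chr5:120777662-120777795, minus strand): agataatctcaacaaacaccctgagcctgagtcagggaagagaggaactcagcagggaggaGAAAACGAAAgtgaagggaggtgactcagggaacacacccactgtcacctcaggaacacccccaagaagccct

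Most members had no called H3K4me3 peak at a transcript start in either list. A start peak was a peak within 1000 bp of any annotated transcript start of the gene. In the PBS list, 20 of 58 members had one (34.5%, exact 95% Clopper-Pearson interval 22.5 to 48.1), against 52.5% of all autosomal protein-coding genes. In the OVA list, 14 members had one (24.1%, interval 13.9 to 37.2), against 43.7% of all genes. Both lists marked 13 members (22.4%, interval 12.5 to 35.3; all genes 43.1%), and 37 members (63.8%) had a start peak in neither. The PBS list alone marked 7 members, Gbp3, Gbp5, Ifi206, Ifi47, Ifit1bl1, Ifit2 and Irgm1 (12.1%, interval 4.99 to 23.3), close to the 9.37% of all genes that were marked in the PBS list alone. The OVA list alone marked Gbp4 (1.72%, interval 0.0436 to 9.24; all genes 0.634%). The intervals cover counting error only, and members that lie in 1 cluster or share a peak are not independent. The share of members called was thus below the share of all genes in each list, while the members called in the PBS list alone were about as frequent as among all genes.

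**Figure D1:**
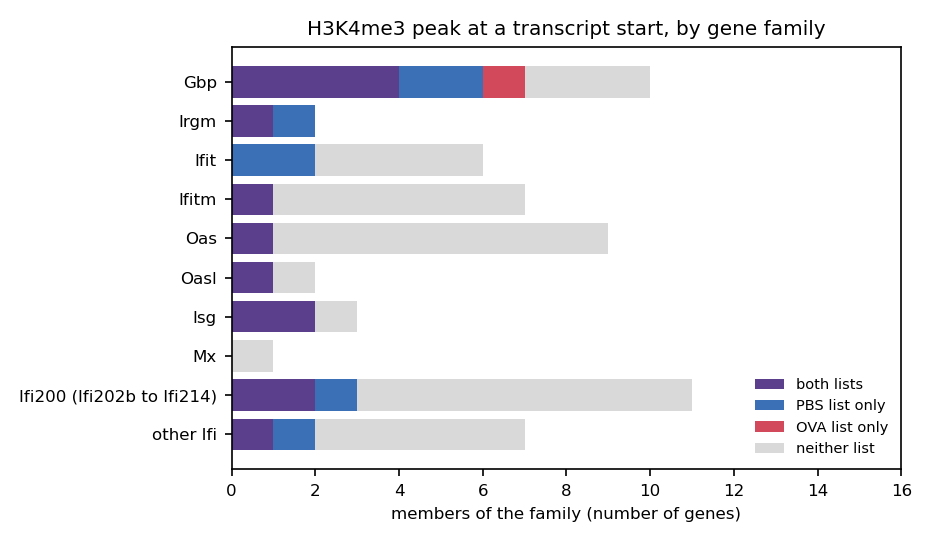
Bars give the number of members in each gene family with a start peak in both lists, in 1 list or in neither. Of 10 Gbp genes 7 had a start peak in at least 1 list, of which Gbp4 and Gbp8 had copied summits alone, whereas 8 of 9 Oas genes and 6 of 7 Ifitm genes had no start peak in either list.

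The guanylate-binding proteins and the Irgm family of immunity-related GTPases made up 12 of the 58 members and held 8 of the 20 members marked in the PBS list and 6 of the 14 marked in the OVA list. Where peaks with copied summits were left out (summit sequence with more than 1 place in the genome), they held 7 of 18 and 3 of 10. Guanylate-binding proteins are large GTPases that coat pathogen vacuoles, and 6 of 10 Gbp genes had a start peak in the PBS list and 5 of 10 in the OVA list, near the shares of all genes (52.5% and 43.7%). Without copied summits these counts were 5 of 10 in the PBS list and 2 of 10, Gbp2 and Gbp7, in the OVA list. Gbp7 had the highest start peak of all members in the PBS list (chr3:142530151-142530945), with a −log10 q of 25.6, 10.5-fold signal over the caller's background and a percentile of 98.3 among all peaks of that list. The −log10 q states how far a peak's signal stands above the background that the caller assumed in 1 library, and it is not scaled between libraries. In the OVA list the Gbp7 peak (chr3:142530380-142530783) had a −log10 q of 13.6, 8.28-fold signal and a percentile of 90.9. Both peaks had their summits in the first part of the gene, and the PBS peak spanned the whole of the Gbp7 stretch printed above. Gbp2 was marked by low peaks in both lists, with a −log10 q of 5.39 in the PBS list and 5.17 in the OVA list. Gbp3 and Gbp5, which lie in the same cluster on chromosome 3, had peaks with a −log10 q of 8.84 and 7.50 in the PBS list and none in the OVA list. Gbp5 had the widest start peak of any member, 974 bp.

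The second Gbp cluster, on chromosome 5, gave less certain values because its peaks largely lay in repeated sequence. Gbp8 had start peaks in the PBS list (chr5:105022557-105022987) and the OVA list (chr5:105022136-105022933), with a −log10 q of 11.1 and 8.80 and 5.17-fold and 5.10-fold signal, but both were wholly within sequence that the genome masks as repeats. The 75 bases around their summits had 1786 and 1521 exact places in the genome. Gbp4, Gbp8 and Gbp9 have annotated starts at nearly the same position and shared 1 OVA peak (chr5:105139221-105139633; −log10 q 5.17), whose summit sequence had 2 places in the genome. Gbp4 was thus marked in the OVA list alone by a peak that could not be assigned to a single gene or locus. Gbp9 had a different, low start peak in the PBS list (chr5:105110325-105110514; −log10 q 3.84), the lowest of any member's highest start peak. Gbp2b, Gbp6 and Gbp10 had no start peak.

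Both Irgm genes had a start peak in the PBS list, and Irgm2 also in the OVA list. IRGM proteins are GTPases that guard host membranes and regulate the other immunity-related GTPases. Irgm2 had its highest peak at an internal start (chr11:58214649-58215307 in the PBS list, −log10 q 22.7; chr11:58214717-58214906 in the OVA list, −log10 q 12.6). A second pair of Irgm2 peaks, with a −log10 q of 13.0 and 8.65, lay at the 5′ end of the gene and also within 1000 bp of the start of Igtp, which encodes another immunity-related GTPase, so their signal cannot be told apart between the genes. The Irgm2 stretch printed above was spanned by the PBS peak and in part by the OVA peak. Irgm1 had 2 start peaks in the PBS list, with a −log10 q of 8.80 and 2.53, and none in the OVA list.

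Start peaks were listed for 2 of 6 Ifit, 1 of 7 Ifitm and 0 of 1 Mx genes in the PBS list (all genes 52.5%), and for 0, 1 and 0 of them in the OVA list (all genes 43.7%). IFIT proteins bind foreign RNA and block its translation, and both marked Ifit genes had their start peak in the PBS list only. The Ifit2 peak (chr19:34550642-34550955) had a −log10 q of 8.84 and covered the annotated start. The Ifit1bl1 peak had the same rounded −log10 q, but lay 966 bp from the start, just inside the 1000-bp limit, in masked repeat sequence with 7925 places in the genome. Ifit1, Ifit1bl2, Ifit3 and Ifit3b had no start peak. IFITM proteins restrict the entry of enveloped viruses, and Ifitm1, Ifitm2, Ifitm3, Ifitm6 and Ifitm7 had no start peak. Ifitm5, which belongs to the family by sequence and is known from bone, had none either. Ifitm10 was the marked member, with a −log10 q of 8.34 in the PBS list and 5.14 in the OVA list. Mx1, a dynamin-like GTPase that blocks influenza viruses and is defective in C57BL/6 mice, had no start peak.

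Oligoadenylate synthetases make the second messenger that activates the nuclease RNase L. Of 9 Oas genes, Oas1c was the single one with a start peak, in both lists (all genes 52.5% in the PBS list and 43.7% in the OVA list). Its peak lay upstream of the annotated start, by 131 bp in the PBS list (chr5:120812645-120813001, −log10 q 6.42) and 174 bp in the OVA list (chr5:120812688-120813013, −log10 q 10.0). Both Oas1c peaks also lay at the start of Oas1b, which the annotation classes as a polymorphic pseudogene and which is therefore no member. Oas1a, Oas1d, Oas1e, Oas1f, Oas1g, Oas1h, Oas2 and Oas3 had no start peak. Oasl1, a relative that restrains translation of Irf7, had the highest start peak of any member in the OVA list (chr5:114922377-114922634), with a −log10 q of 18.1, 10.1-fold signal and a percentile of 96.5. In the PBS list the Oasl1 peak (chr5:114922369-114922674) had a −log10 q of 14.6 and 8.44-fold signal. The Oasl1 peaks lay 566 and 606 bp upstream of the nearest Oasl1 start, near the start of the noncoding gene Gm13822, and 66.7% and 76.0% of their bases were masked as repeats, although the summit sequence occurred once in the genome. Oasl2 had no start peak.

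Isg20 and Isg20l2, which encode exonucleases, were marked in both lists, whereas Isg15, which encodes a ubiquitin-like modifier, was not marked in either. Isg20 had a −log10 q of 8.69 in the PBS list and 4.93 in the OVA list. Isg20l2 is a family member by name and is known from ribosome biogenesis. Its highest peaks had a −log10 q of 13.5 and 7.63, and lay within 1000 bp of the start of its neighbour Rrnad1. For Isg15 the nearest peaks lay 2293 bp away in the PBS list and 2374 bp away in the OVA list, outside the limit and at the start of another gene. Isg15, Ifit1bl2 (2084 bp) and Ifit1 (2212 bp, both in the OVA list) and Gbp10 (2022 bp in the PBS list and 2014 bp in the OVA list) were the 4 members nearest to the limit on its outside, all more than 2000 bp away.

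The Ifi200 genes encode p200 proteins, a family that includes sensors of DNA. Of 11 genes, 3 had a start peak in the PBS list and 2 in the OVA list (all genes 52.5% and 43.7%). Without copied summits these counts were 3 and 1. The peaks were low. Ifi203 had a −log10 q of 5.99 in the PBS list and 6.00 in the OVA list, at a position within 1000 bp of the start of Mndal, a p200 gene whose name is outside the rule. Ifi209 had 5.39 and 4.38, and the summit sequence of its OVA peak had 2 places in the genome. Ifi206 had 5.39 in the PBS list alone. Ifi202b, Ifi204, Ifi205, Ifi207, Ifi208, Ifi211, Ifi213 and Ifi214 had no start peak. Of the other 7 Ifi genes, Ifi35 was marked in both lists (chr11:101448426-101448724 and chr11:101448485-101448684), with a −log10 q of 16.7 and 12.2. Ifi47, which encodes an immunity-related GTPase, had 2 start peaks in the PBS list (−log10 q 8.69 and 11.1). Both lay at internal starts and not at the 5′ end of the gene, and within 1000 bp of a start of Olfr56. Ifi27, Ifi27l2a, Ifi27l2b, Ifi44 and Ifi44l had no start peak.

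**Figure D2:**
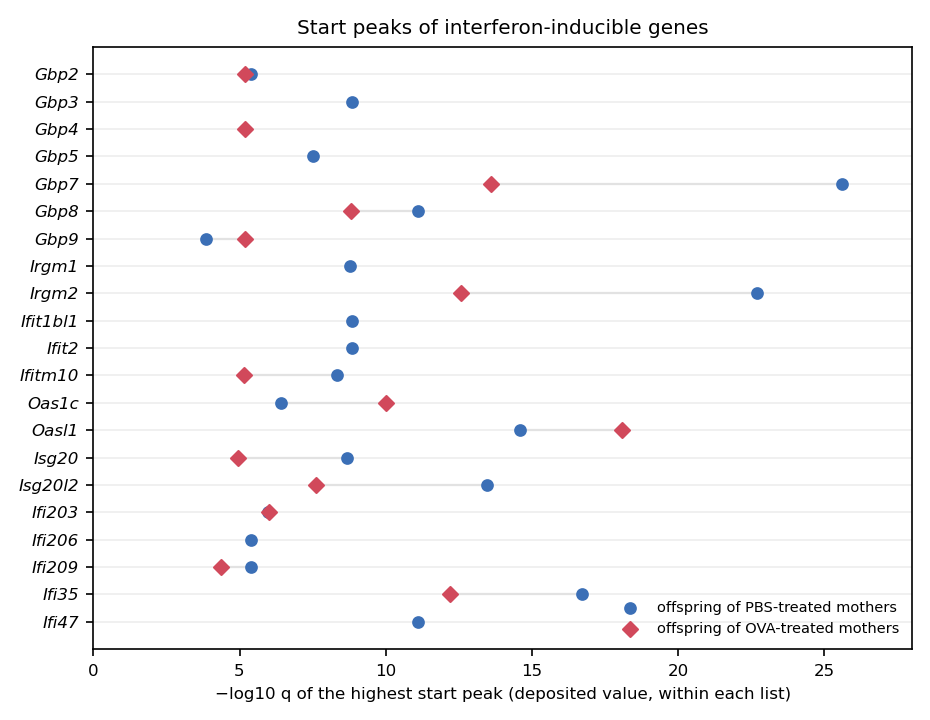
Points give the −log10 q of the highest start peak of each of the 21 members with a start peak, for the PBS list (circles) and the OVA list (diamonds); grey lines join the values of 1 gene, and a missing point means that no start peak was listed. Gbp7 and Irgm2 led the PBS list with 25.6 and 22.7, and Oasl1 led the OVA list with 18.1; values are not scaled between the lists.

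Where members were marked, their peaks were low for gene starts in the PBS list. Genes with a start peak were ranked by their highest −log10 q, and the 20 marked members had a median percentile of 17.0 in the PBS list, with 13 in the lowest 25%. The exceptions were Gbp7 (97.2) and Irgm2 (93.2), in the highest 25%, and a further 2 members in the upper part of the ranking, Ifi35 (69.4) and Oasl1 (54.9). In the OVA list the 14 marked members had a median percentile of 32.3, with 7 in the lowest 25% and 4 in the highest 25%, Oasl1 (98.8), Gbp7 (92.9), Irgm2 (89.0) and Ifi35 (86.9). These 4 genes were the 4 highest members in both lists. The 24 start peaks of the PBS list had a median width of 346.5 bp and a median −log10 q of 8.74, against 477 bp and 12.2 for the 12446 peaks at all autosomal coding starts. In the OVA list the 15 start peaks had a median width of 215 bp and a median −log10 q of 7.63, against 321 bp and 7.57 for 9927 peaks.

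The members marked in the PBS list alone were nearly all genes with low peaks, a class in which many genes of any kind lacked an OVA peak. The 1 member with a highest PBS peak below 5, Gbp9, had a start peak in the OVA list, though at a different peak, where 78.1% of 279 genes had none. Of 12 members whose highest PBS peak had a −log10 q from 5 to 10, 6 had no start peak in the OVA list (Gbp3, Gbp5, Ifi206, Ifit1bl1, Ifit2 and Irgm1), against 46.6% of 2316 genes in this range. Of 5 members from 10 to 20, Ifi47 alone had none, against 9.21% of 6707 genes. Both members above 20 had a start peak in the OVA list, where 2.04% of 1615 genes had none. Of the 24 PBS start peaks, 14 were overlapped by an OVA peak (58.3%, interval 36.6 to 77.9), against 70.9% of peaks at all coding starts. Of the 15 OVA start peaks, 14 were overlapped by a PBS peak (93.3%, interval 68.1 to 99.8), against 95.9%. The peak shared by Gbp4, Gbp8 and Gbp9 was the exception. Of the markers of other cells, 2 of 5 epithelial (Epcam and Cdh1) and 1 of 4 endothelial (Kdr) had a start peak in the PBS list alone (all genes 9.37%). Their −log10 q was 14.7, 8.98 and 3.84. The other epithelial and endothelial markers examined had a start peak in neither list. The study sorted adult lung ILC2s by a gate on CD45, CD90.2 and ST2 without lineage markers. The part of other cells in the members' peaks was not tested.

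The number of fragments at a peak summit was solved from the deposited fold and p-value and for 100% of 2000 peaks tried in each list a whole number returned the deposited −log10 p to within 0.1% of its value. The marked members ranged from 11 fragments at Gbp9 to 37 at Gbp7 in the PBS list, and from 11 at Ifi209 to 25 at Oasl1 in the OVA list. With so few fragments the counting error is wide: the 95% Poisson interval was 26.1 to 51.0 for Gbp7 and 5.49 to 19.7 for Gbp9. In 10 of the 13 members with a start peak in both lists the PBS summit held more fragments (76.9%), against 97.3% of 8968 genes. Oasl1 (23 against 25), Oas1c (15 against 18) and Gbp9 (11 against 12, at different peaks) held more in the OVA list, each by less than the counting error. The median ratio of PBS to OVA fragments was 1.25 for these members (range 0.833 to 1.73) and 1.64 for all genes.

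**Figure D3:**
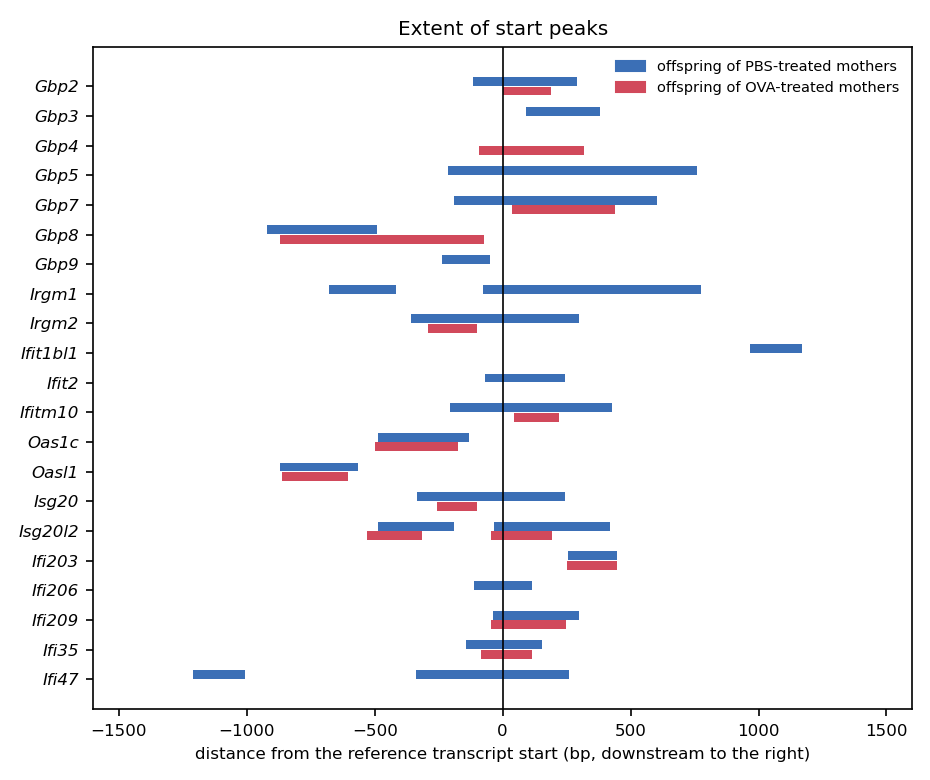
Bars give the extent of start peaks in the PBS list (blue) and the OVA list (red) around 1 reference start per gene, the start nearest to its highest PBS peak (for Gbp4, its OVA peak), in bp along the direction of transcription. Peaks at other starts that lie beyond the axis, such as the OVA peak that Gbp8 and Gbp9 share with Gbp4 and the second Irgm2 peaks, are not drawn for that gene; PBS peaks such as those of Gbp5 and Gbp7 cross the start, and those of Oasl1 and Oas1c end before it.

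Peaks lay on both sides of the starts. Of the 24 PBS start peaks, 15 covered a start and 20 had a summit within 500 bp of one, with 14 summits downstream and 10 upstream. Of the 15 OVA start peaks, 5 covered a start and 14 had a summit within 500 bp, with 9 downstream and 6 upstream. In the PBS list the peaks of Gbp2, Gbp5, Gbp7, Ifi35, Ifit2 and Ifitm10 covered the start, whereas those of Gbp3 and Ifi203 began downstream and those of Oas1c and Oasl1 ended upstream. The peaks of the lists also differed in width over all features, with a median of 315 bp in the PBS list and 249 bp in the OVA list and a shortest listed peak of 190 and 156 bp.

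The gene clusters held further peaks that were mostly in copied sequence. A peak was called copied when the 75 bases around its summit had another exact copy on the assembled chromosomes, as was the case for 65.2% of all PBS peaks and 76.9% of all OVA peaks. In the Gbp cluster on chromosome 3 (chr3:142493978-142638008), all 4 PBS peaks and all 3 OVA peaks were single-copy. In the Gbp cluster on chromosome 5 (chr5:105014150-105293698), 5 of 6 PBS peaks and all 10 OVA peaks were copied. In the Ifi200 cluster (chr1:173468485-174031810), 3 of 7 PBS peaks and 8 of 9 OVA peaks were copied. The Oas cluster (chr5:120730333-120921652) had 6 of 7 and 5 of 6, and the Ifit cluster (chr19:34550694-34650009) had 2 of 3 and 2 of 2. An example is a peak in an intron of Oas2 (chr5:120745322-120745543), which reached a −log10 q of 20.5 in the OVA list, above every member's start peak there, and whose summit sequence had 16121 places in the genome. Of the start peaks themselves, 2 of 24 in the PBS list (8.33%) and 3 of 15 in the OVA list (20.0%) were copied, against 3.04% and 4.52% of the peaks at all coding starts. Around the 5′ end, some of the 75-base stretches were copied in 18 of the 37 members without a start peak and in 8 of the 21 with one, at most 33.3% of the stretches (Ifit3 and Ifit3b, both without a start peak) and 23.8% (Ifi203). The part of copied sequence in the missing peaks was not tested.

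Most members without a start peak were far from any peak. For the 37 members with none in either list, the nearest peak to a start lay at a median of 21900 bp in the PBS list (range 2022 to 83781) and 32251 bp in the OVA list (range 2014 to 111107). It lay beyond 10000 bp for 27 and 30 of them.

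**Figure D4:**
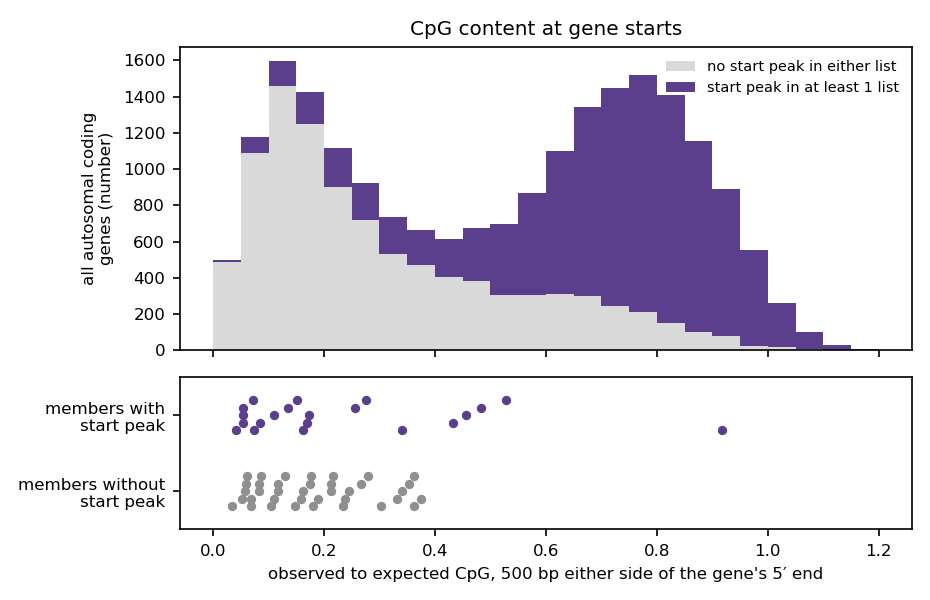
The upper panel gives the number of all autosomal protein-coding genes by the ratio of observed to expected CpG around the gene's 5′ end, split by a start peak in at least 1 list. The lower panel gives the same ratio for each member, with vertical position spread for legibility; most members, marked or not, sit among the CpG-poor genes, and the 5 highest values, from Ifit2 at 0.433 to Isg20l2 at 0.918, belong to marked members.

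The members shared CpG-poor starts, a feature that the choice by name did not use. The ratio of observed to expected CpG within 500 bp of the gene's 5′ end had a median of 0.166 over the 58 members and 0.568 over all genes. Members with a start peak had a median of 0.163 and members without one 0.175, but the former reached higher values, up to 0.918 against 0.374. The 5 members with the highest ratio, Isg20l2 (0.918), Irgm1 (0.528), Oasl1 (0.483), Gbp7 (0.456) and Ifit2 (0.433), all had a start peak. By comparison, among all genes those with a start peak had a median of 0.743 and those without 0.232. All genes were divided into 4 classes of equal size by this ratio. Of the members, 38 fell in the class with the fewest CpG (a ratio of up to 0.221), 19 in the second class, 0 in the third, and Isg20l2 in the fourth. In the first class 12 of 38 members had a PBS start peak (31.6%, interval 17.5 to 48.7), against 9.13% of all genes there, and 8 had an OVA start peak (21.1%, interval 9.55 to 37.3), against 7.36%. In the second class 7 of 19 members (36.8%, interval 16.3 to 61.6) and 5 of 19 (26.3%, interval 9.15 to 51.2) had one, against 33.4% and 24.7%. In the first and second classes the members' shares were not below those of all genes there, whereas over all classes they were below. The ratio was taken at the 5′ end alone, but a start peak could lie at any start. In the first class the PBS start peaks of Gbp5, Gbp8, Gbp9, Ifi47 and Ifitm10 lay more than 1000 bp from that end. Its OVA count included Gbp4, Gbp8 and Gbp9, which shared a peak and have 5′ ends at nearly the same position. These genes and Ifi209 had copied summits alone in the OVA list. The part of CpG content in the members' shares was not tested. In the fourth class, which holds Isg20l2, 90.3% of genes had a start peak in the PBS list and 81.5% in the OVA list.

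An ISRE-like match was common before the members' starts, and was found in marked and unmarked members alike. Of the 58 members, 45 had an entry in the RefSeq promoter table (GRCm38.p6), and Gbp4, Gbp6, Gbp8, Gbp9, Gbp10, Ifi27, Ifi27l2a, Ifi27l2b, Ifi204, Mx1, Oas1d, Oas1e and Oas2 had none. In the 250 bases before the start, 26 of 45 members (57.8%) held the ISRE-like motif, against 558 of 15687 autosomal protein-coding genes (3.56%). Members are not independent in this count, since many are paralogs, and Ifit1 and Ifit1bl2 held matches at the same bases on opposite strands. The stretches printed above show 1 match for Gbp7, Irgm2 and Oas3 and several, in part overlapping, for Isg15, Ifit1, Ifit3 and Oas1c. Of the 26 members with a match, 10 had a PBS start peak and 5 an OVA start peak, and of the 19 without, 8 and 6 had one. A GAS-like match (TTC, any 3 bases and GAA, which is its own reverse complement) was held by 8 of 45 members (17.8%), against 7.76% of genes. Of these 8, namely Gbp5, Gbp7, Ifi202b, Ifit2, Ifitm6, Irgm2, Isg20 and Oas1a, 5 had a PBS start peak and 3 an OVA start peak, and of the 37 without a match, 13 and 8. Gbp5, Gbp7, Irgm2 and Oas1a held both motifs, at positions that did not overlap. A match is a description of the sequence and not a measured binding site.

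**Figure D5:**
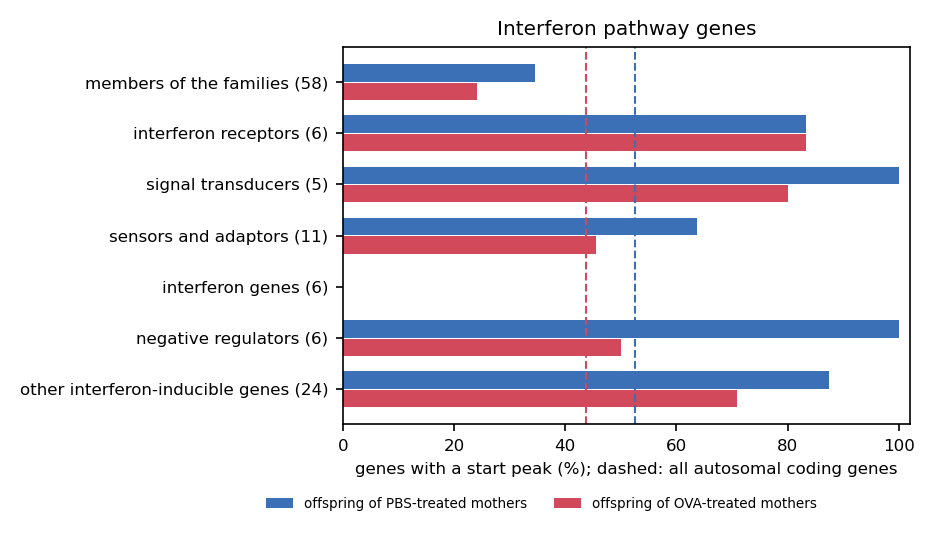
Bars give the percentage of genes with a start peak in the PBS list (blue) and the OVA list (red) for the members and for lists of interferon pathway genes, with the number of genes in parentheses; dashed lines give all autosomal protein-coding genes (52.5% and 43.7%). Receptors and signal transducers stood above the lines in both lists, the members below them, and the interferon genes had no start peak.

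Genes of the interferon pathway outside the families were examined by role, and none of the differences between these lists and the families was tested. Of all genes, 52.5% had a start peak in the PBS list, 43.7% in the OVA list and 9.37% in the PBS list alone. Of 6 interferon receptor genes, 5 had a start peak in each list, with a −log10 q of 24.6 and 11.4 for Ifnar2, 11.3 and 6.86 for Ifnar1, and 15.3 and 7.44 for Ifngr1 (PBS list first); Ifnlr1, the specific chain of the type III receptor, had none. All 5 signal transducers examined (Jak1, Jak2, Tyk2, Stat2 and Irf9) had a start peak in the PBS list, and 4 in the OVA list. Stat2 had a −log10 q of 14.7 and 6.00. Irf9 had a start peak in the PBS list alone (−log10 q 9.76). Of 6 interferon genes, including Ifnb1 and Ifng, 0 had a start peak. Of 11 sensors and adaptors, 7 were marked in the PBS list (63.6%; all genes 52.5%) and 5 in the OVA list (45.5%; all genes 43.7%), and Tlr3 (−log10 q 21.1) and Zbp1 (10.1) were in the PBS list alone (all genes 9.37%). Of 6 negative regulators, 6 and 3 were marked, and Socs3, Usp18 and Ptpn6 were in the PBS list alone.

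Of 24 interferon-inducible genes outside the families, 21 had a start peak in the PBS list (87.5%) and 17 in the OVA list (70.8%), against 52.5% and 43.7% of all genes and 34.5% and 24.1% of the members, and Rsad2, Iigp1 and Samd9l had none. Herc6, an E3 ligase for ISG15, had a −log10 q of 25.1 in the PBS list and 11.5 in the OVA list. The genes of antigen presentation on this list, B2m, Tap1, Psmb8, Psmb9 and Nlrc5, were marked in both lists. The median ratio of observed to expected CpG was 0.404 for the 24 genes and 0.674 for the receptors, against 0.166 for the members. The list was chosen with earlier results of these data known, and several of its genes share 1 peak, such as Parp9 with Dtx3l.

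The lists were checked against markers of the labelled cell type. Of 15 ILC2 markers, 12 had a start peak in the PBS list (80.0%; all genes 52.5%) and 8 in the OVA list (53.3%; all genes 43.7%), including Il1rl1, Rora, Id2, Il2ra and Areg in both, while 4 of 15, Gata3, Il7r, Il5 and Nmur1, were in the PBS list alone (all genes 9.37%) and Icos, Klrg1 and Il13 were in neither. None of the markers of T cells (7), B cells (5), macrophages (6), neutrophils (5) or fibroblasts (5) had a start peak in either list. Of 5 epithelial markers 2, and of 4 endothelial markers 1, had a start peak in the PBS list, and none in the OVA list.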

How the data were processed

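H3K4me3 CATCH-seq of lung ILC2s was used, with 1 library per group. Per the study's methods, trimmed reads were mapped with Bowtie 2 to GRCm38 and duplicate reads were discarded. The reporting summary says that peaks were not called on these data, although lists were deposited; the caller, its threshold and its use of the input are not given in the sources used here. The deposited lists hold for each peak a score (10 times the −log10 q, rounded down, for nearly all peaks), the authors' fold (a ratio of summit signal to background), −log10 p-value and −log10 q-value, and the smallest −log10 q was 2.02 (PBS) and 2.01 (OVA). Fold and p were used to solve the fragments at each summit, with 1 added to signal and background, and the solver was checked on values with known answers. Positions were counted from 1 on GRCm38. Exact 75-base copies were sought on 21 assembled chromosomes. Intervals are exact Clopper-Pearson (scipy 1.17.1) and cover counting error only. Values are given for every member with a start peak, and members without are named. One gene was left out of the pathway lists and is not reported here. The members, pathway lists and marker lists were chosen with earlier results of these data known. Alternatives varied the distance to a start, the starts, the peak threshold, copied sequence and the overlap.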

Additional observations from a re-analysis of the deposited data

How the results depend on the processing

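Of 58 values recomputed under an alternative, 46 changed little (counts within 1.5 times, shares and medians within their 95% interval), 12 moved and 0 reversed. With the 5′ end of each gene as its start, 15 members were marked in the PBS list and 13 in the OVA list (all genes 48.5% and 40.0%). Restricting each list to the 10000 peaks of highest −log10 p left 5 marked members in the PBS list and 4 in the OVA list (all genes 33.8% and 9.82%), 1 in the PBS list alone and 0 in the OVA list alone, with 100% of OVA start peaks overlapped. With single-copy summits alone, 18 and 10 members were marked (all genes 51.1% and 42.2%), 0 in the OVA list alone, the PBS median percentile by −log10 q was 32.0 instead of 57.4, since percentiles were then taken among single-copy peaks, and 100% of OVA start peaks were overlapped. The count in the OVA list alone was 3 with the 5′ end of each gene as its start and 2 with a −log10 q of at least 5. Requiring 50% of both peaks to overlap gave 33.3% of PBS and 53.3% of OVA start peaks. Leaving out peaks at starts of other coding genes, an alternative chosen after seeing the data, left 17 and 12 marked members. Shares of all genes are not given for this alternative, nor for the counts in 1 list alone under the alternatives. Other causes of these differences were not tested. No paired analysis was possible because each group held a single library. Marked summits held 11 to 37 fragments, so counting error is wide and a missing peak does not show an absent mark.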
